A study of Rattus norvegicus with 6 samples.

Results

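S100 proteins are small calcium sensors with paired EF-hand loops, and most of them bind calcium as dimers and then attach to target proteins inside the cell. Some are also released and act on receptors such as Ager (the receptor for advanced glycation end products) and Tlr4. In the brain S100b is best known as an astrocyte protein that mature oligodendrocytes make too, whereas S100a8 and S100a9, which together form calprotectin, are abundant in neutrophils and monocytes. Expression of 10 S100 genes (S100a1, S100a4, S100a6, S100a8, S100a9, S100a10, S100a11, S100a13, S100a16 and S100b) was examined in rat hippocampus on single-colour Agilent arrays. The genes were chosen by name, with earlier results of these data known. Every non-control probe whose accession belonged to one of them was taken, which gave 11 of the 30367 probes on the array. S100b had 2 probes and each other gene had 1.

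The AD group (3 arrays) came from adult male Sprague Dawley rats whose cerebral ventricles were injected by cannula with Aβ1-42 oligomers (aggregates of the long amyloid peptide). The Sham group (3 arrays) came from sham control rats of the same strain and sex. The animals carried no transgene in the labels, so this is an injection model, and the time between injection and dissection is not given in the sources used here. Nothing in the labels ties each sample to its own animal, and a p-value then speaks for the scatter of these samples, which may be technical. Levels are given as the log2 of the processed signal relative to the 75th percentile of its array, so that 0 marks that percentile. Levels of different probes are not compared with each other as amounts of RNA.

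The 75th percentile of the signal was 796 to 932 on the AD arrays and 429 to 755 on the Sham arrays, and 70.8% to 79.7% of probes per array were well above background. The AD arrays were scanned together, Sham 1 and Sham 2 were scanned together on the same day, and Sham 3, the dimmest array, was scanned alone on another day. Each scan held arrays of 1 group, so group and scan cannot be told apart within the first day. The comparison within that day (3 AD against 2 Sham arrays) is given beside each called S100 probe. It is also given where it changes the call of a gene named from the S100, partner, receptor or EF-hand lists, except for Il1b and Ccl2. Of the genes that had a probe, 12 of 12 neuron and 14 of 14 astrocyte genes were measured above background. So were 14 of 14 skeletal muscle genes, although Myh4 and Tnnt3 were well above background on AD arrays only. These counts therefore do not identify the tissue. In whole tissue, fewer cells of a type and less RNA per cell cannot be told apart.

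All 11 S100 probes were well above background on all 6 arrays and all were tested. With limma and Benjamini-Hochberg adjustment over 22768 probes, S100a8 and S100a9 were lower in AD, S100b was higher in AD by 1 of its 2 probes, and the other 8 probes did not pass the threshold of 0.05. Among all tested probes 4.16% were called higher and 8.45% were called lower, against 1 and 2 of the 11 S100 probes, and counts this small do not set the family apart. The median change of the S100 probes was -0.03 on the log2 scale, beside -0.01 over all tested probes, with 5 positive and 6 negative changes. The 3 AD arrays all lay above the 3 Sham arrays for 4 S100 probes (S100a1, S100a16 and both S100b probes), beside 15.6% of all tested probes. They all lay below for 4 (S100a6, S100a8, S100a9 and S100a10), beside 23.4% of all tested probes. S100a4, S100a11 and S100a13 overlapped.

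**Figure D1:**
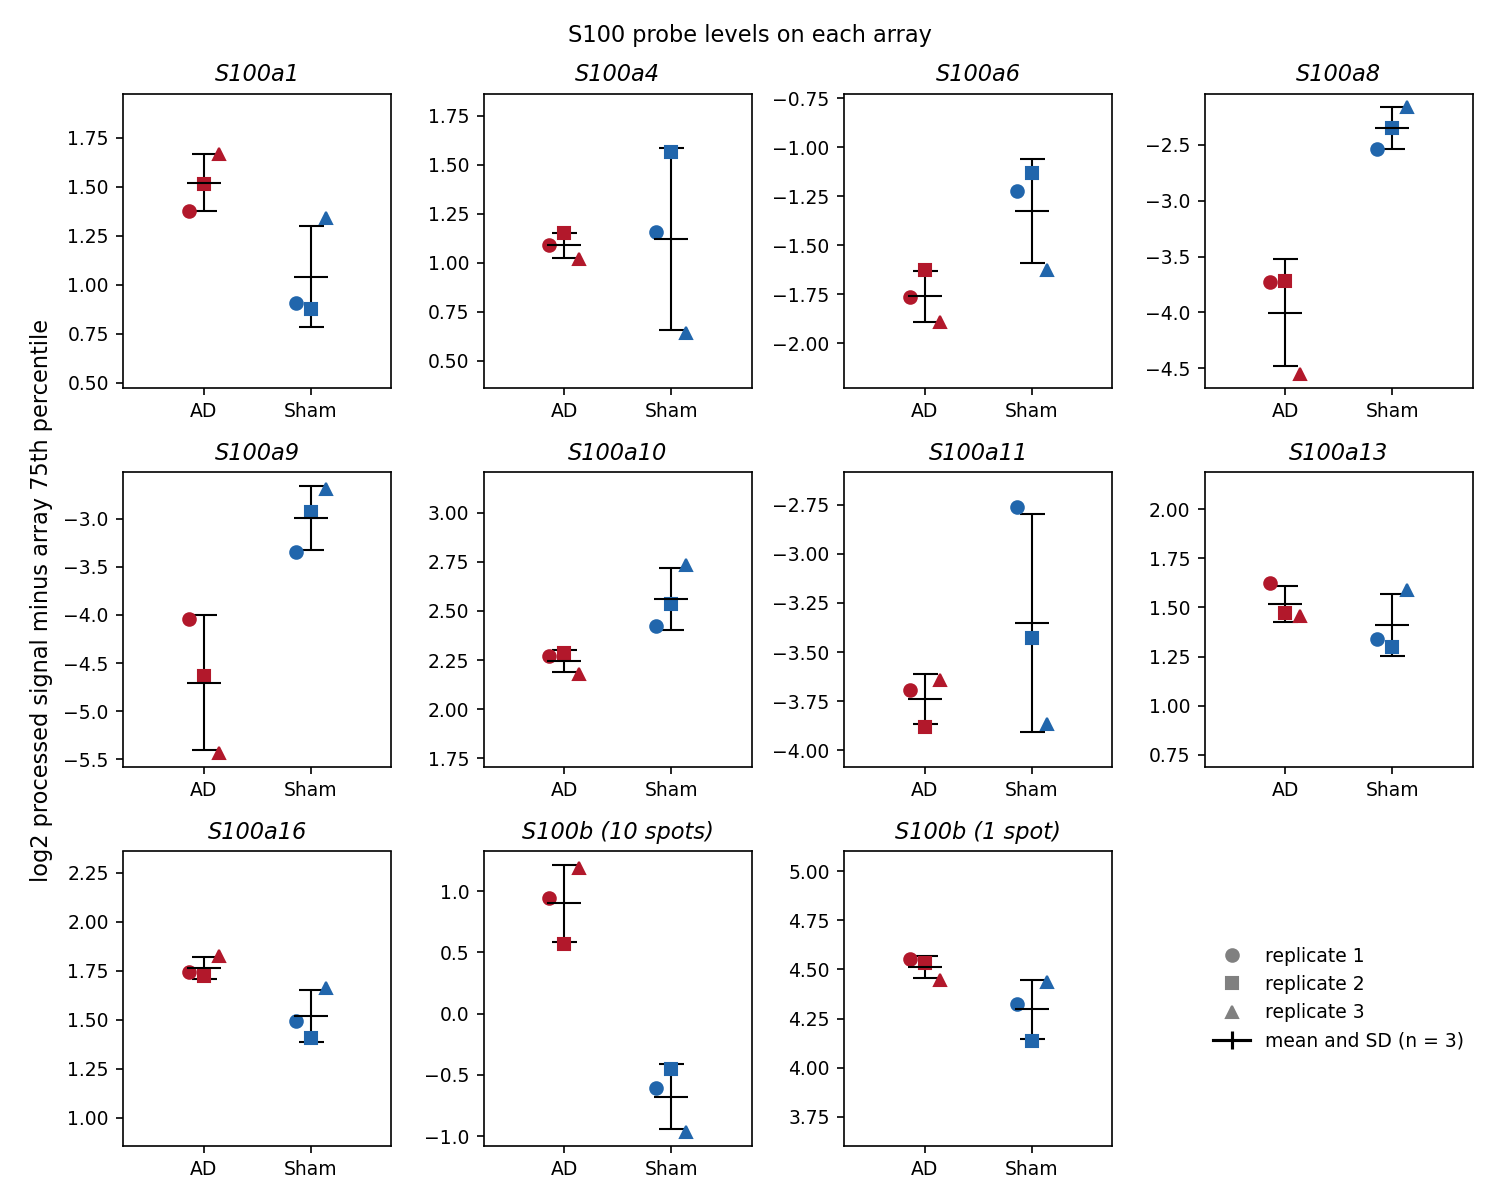
Level on the log2 scale, relative to each array's 75th percentile (vertical axis, a separate scale for each probe) on the 3 AD and 3 Sham arrays, with symbols for replicates and bars for the mean and SD. AD and Sham points are far apart for S100a8, S100a9 and the 10-spot S100b probe, whereas S100a4, S100a11 and S100a13 overlap.

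**Figure D2:**
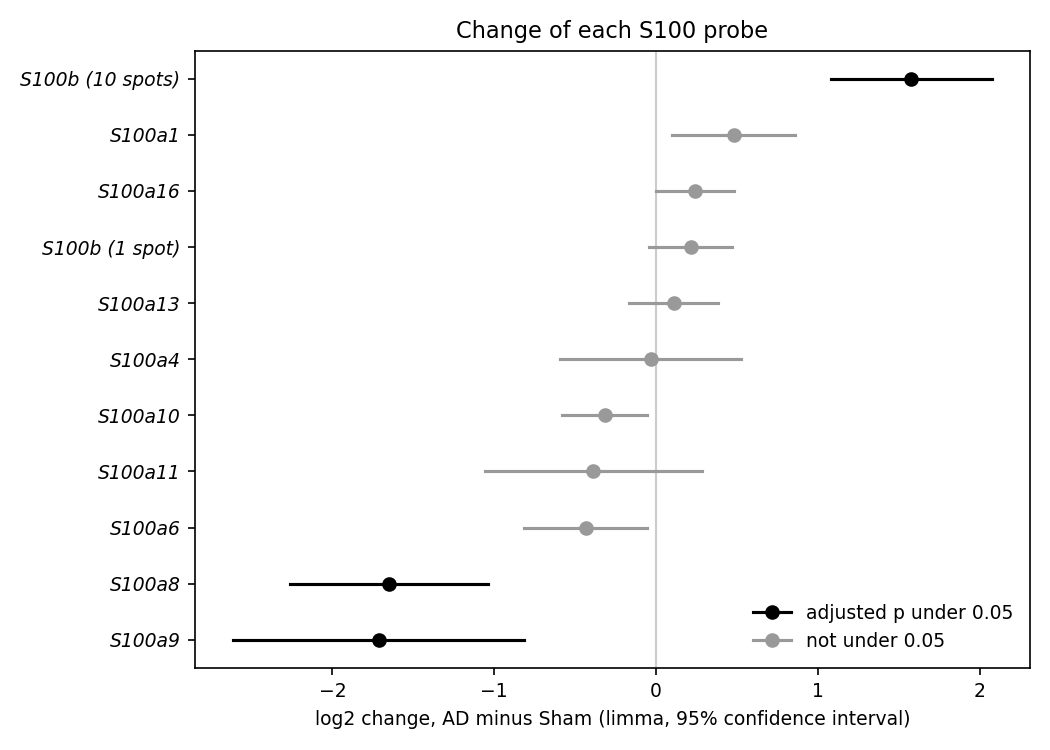
Log2 change, AD minus Sham, with its 95% confidence interval from limma for each of the 11 S100 probes, black where the adjusted p was under 0.05. S100a8 at -1.65 and S100a9 at -1.71 lie at the bottom and the 10-spot S100b probe at 1.58 lies at the top.

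S100a8, 1 of the subunits of calprotectin, was lower in AD. Its levels were -3.73, -3.72 and -4.55 on AD 1, 2 and 3 and -2.54, -2.35 and -2.16 on Sham 1, 2 and 3. Every AD array lay below every Sham array, with 1.18 between the nearest values. The change was -1.65 ± 0.25 (SE, n = 3 each, 95% confidence interval -2.26 to -1.04), a level 3.14-fold lower in AD, with a limma adjusted p of 0.0217. Within the first scan day the change was -1.55 (adjusted p = 0.0296). The probe was dim, with processed signals of 39.7 to 67.4 in AD and 96.0 to 148 in Sham, and its size depended on the background correction. After normexp correction the level was 2.03-fold lower (change -1.02, adjusted p = 0.0190).

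S100a9, its partner in calprotectin, moved the same way, with a wider spread. Levels were -4.04, -4.63 and -5.44 on AD 1, 2 and 3, and -3.35, -2.93 and -2.69 on Sham 1, 2 and 3. The groups did not overlap, although AD 1 and Sham 1 were only 0.69 apart. The change was -1.71 ± 0.37 (SE, n = 3 each, interval -2.61 to -0.82), or 3.28-fold lower in AD, with a limma adjusted p of 0.0378. Within the first scan day it was -1.56 and no longer passed (adjusted p = 0.0614), and under normexp the level was 2.05-fold lower (change -1.04, adjusted p = 0.0346). By level, AD 3 was the lowest array for both genes and Sham 3 the highest. By processed signal before scaling, Sham 3 was the lowest Sham array for both (96.0 for S100a8 and 66.6 for S100a9).

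The call of S100a8 was lost on leaving out any array but Sham 3, and that of S100a9 on leaving out any array. Without AD 1, AD 2 or AD 3 the limma adjusted p of S100a8 was 0.117, 0.0514 and 0.0841, and that of S100a9 was 0.117, 0.0863 and 0.0904. Without Sham 1 or Sham 2 it was 0.0562 and 0.0730 for S100a8 and 0.0684 and 0.105 for S100a9. Without Sham 3 it was 0.0296 for S100a8 and 0.0614 for S100a9. The changes stayed negative in each case, between -1.79 and -1.37 for S100a8 and between -2.05 and -1.35 for S100a9. With scan as a random block neither passed (adjusted p = 0.192 for S100a8 and 0.266 for S100a9). Except for that of S100a9 without Sham 3, these losses were shared by the whole array. Of all 22768 tested probes 0 were called without AD 1, AD 2, Sham 1 or Sham 2, and 2 without AD 3. Without Sham 3 it was 4460, and with scan as a random block 0.

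Markers of neutrophils, of monocytes and macrophages and of erythrocytes were checked beside these changes. Of the 15 neutrophil markers listed, 13 had a probe and 6 were measured; 0 of these passed in either direction, and Prtn3, Ngp, Cxcr2 and Ctsg were well above background on 1 array each, Mmp9 on 1, and Ltf and Mmp8 on 0. Camp, a granule peptide of neutrophils, had levels of -2.33, -2.71 and -3.87 in AD and -2.61, -1.98 and -1.64 in Sham, a change of -0.89 (adjusted p = 0.229) with AD 3 lowest and Sham 3 highest as for S100a8. Fcnb (ficolin B) had a change of 0.39 (adjusted p = 0.803). A summed level adds the linear signals of a list's measured genes before the log2 is taken, so the brightest probe weighs most. The summed level of the measured neutrophil genes was -1.07 to -0.41 in AD and -0.89 to -0.28 in Sham. Of 10 measured monocyte and macrophage genes 2 were lower and 0 higher: Clec10a, a lectin of macrophages, at -1.003 ± 0.23 (adjusted p = 0.0430), and Lyve1, a hyaluronan receptor, at -0.50 ± 0.11 (adjusted p = 0.0361). The other 8 did not pass. The summed monocyte and macrophage level was 3.35 to 3.37 in AD and 3.52 to 4.06 in Sham. Lyz2, with the brightest probe of that list, had a change of -0.48 (limma adjusted p = 0.143).

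Of 7 measured erythrocyte genes 0 passed in either direction, and the haemoglobin genes Hbb-b1 and Hbb, those with the largest changes, were, like S100a8, lowest on AD 3 and highest on Sham 3. Hbb-b1 had levels of 0.25, 1.15 and -1.62 in AD and 0.53, 3.29 and 4.23 in Sham, and Hbb 1.70, 2.50 and -0.04 in AD and 2.20, 4.56 and 5.18 in Sham. Their changes, -2.76 and -2.59, did not pass (adjusted p = 0.153 and 0.125), and a second probe of Hbb had a positive change of 1.26. The other erythrocyte genes were divided, with -1.25 for Hba-a1 (1.65 by its second probe) and -0.49 for Hba-a3, and 0.66 for Slc4a1, 0.12 for Alas2 and 0.07 for Ahsp. The summed erythrocyte level was 2.81 to 3.97 in AD and 3.71 to 6.44 in Sham. The part of blood or leukocyte RNA in the S100a8 and S100a9 changes was not tested.

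RefSeq (assembly GRCr8) lists 7 of the 10 genes in its promoter sequences, and S100a9 is the called member of the calprotectin pair among them. The 250 bases that precede its start are shown because the gene moved with its neighbour S100a8, with 3 short motifs in capitals in the order TTCCTC (the ETS core GAGGAA on the other strand, at 209 bases before the start), TTTCACAA (a C/EBP-type match to TTNNGNAA on the other strand, at 173) and the core-promoter box TATAAA (at 42). The region is chr2:178490623-178490872 on the minus strand, and motifs were searched on both strands.
S100a9: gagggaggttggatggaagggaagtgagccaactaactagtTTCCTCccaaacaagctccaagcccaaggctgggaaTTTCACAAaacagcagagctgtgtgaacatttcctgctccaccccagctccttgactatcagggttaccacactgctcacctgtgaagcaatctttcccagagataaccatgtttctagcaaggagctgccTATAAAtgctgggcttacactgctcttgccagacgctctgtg
Over the 33469 promoter windows of this length in the same table, TATAAA was found in 12.9%, the C/EBP-type motif in 37.2% and the ETS core in 23.3%. Among the 7 S100 promoters, TATAAA was found in S100a4 and S100a9, and the other motifs in S100a9 only; the SOX core ACAAAG was in 16.3% of all windows and in 0 of the 7. These matches describe letters and not bound sites.

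S100b, the family member best known from astrocytes, had a probe printed on 10 spots and a probe printed on 1 spot, and they gave different values. On the 10-spot probe the levels were 0.95, 0.57 and 1.19 on AD 1, 2 and 3, and -0.61, -0.45 and -0.97 on Sham 1, 2 and 3. The groups lay 1.02 apart at their nearest. The change was 1.58 ± 0.20 (SE, n = 3 each, interval 1.08 to 2.08), or 2.98-fold higher in AD, with a limma adjusted p of 0.0193, and 1.43 within the first scan day (adjusted p = 0.0204). Among the separate spots, the lowest on any AD array was 0.02 (AD 2) and the highest on any Sham array 0.08 (Sham 2), so single spots of these 2 arrays overlapped although their means did not. The spots of 1 array varied by 5.11% to 27.3% (coefficient of variation), with 1 spot of Sham 1 and 2 spots of Sham 3 left out as outliers. Leaving out AD 1, then AD 2, AD 3 and each of Sham 1 and Sham 2, the adjusted p was 0.117, 0.0514, 0.0841, 0.0554 and 0.0697, so that the call was lost in each case, and without Sham 3 it was 0.0204. With scan as a random block it was 0.171. As given above for S100a8, almost no probe of the array was called in these fits, except in that without Sham 3. The change stayed between 1.43 and 1.74.

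On the 1-spot probe, S100b had levels of 4.55, 4.53 and 4.45 on AD 1, 2 and 3 and 4.32, 4.13 and 4.43 on Sham 1, 2 and 3. The AD arrays were the higher, by 0.013 over the nearest Sham array (Sham 3). The change was 0.22 ± 0.11 (SE, n = 3 each, interval -0.04 to 0.47), which did not pass (limma adjusted p = 0.221). It passed with quantile normalization (0.42, adjusted p = 0.0446), on the authors' table (0.42, 0.0439) and with array weights (0.35, 0.0108). The 2 probes' changes differed by 1.36, and a two-sided exact permutation test of that difference over the 6 arrays gave p = 0.1, the smallest that 3 against 3 allows. The sequences of the probes are not used here, so the part of the transcript each detects is not given.

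**Figure D3:**
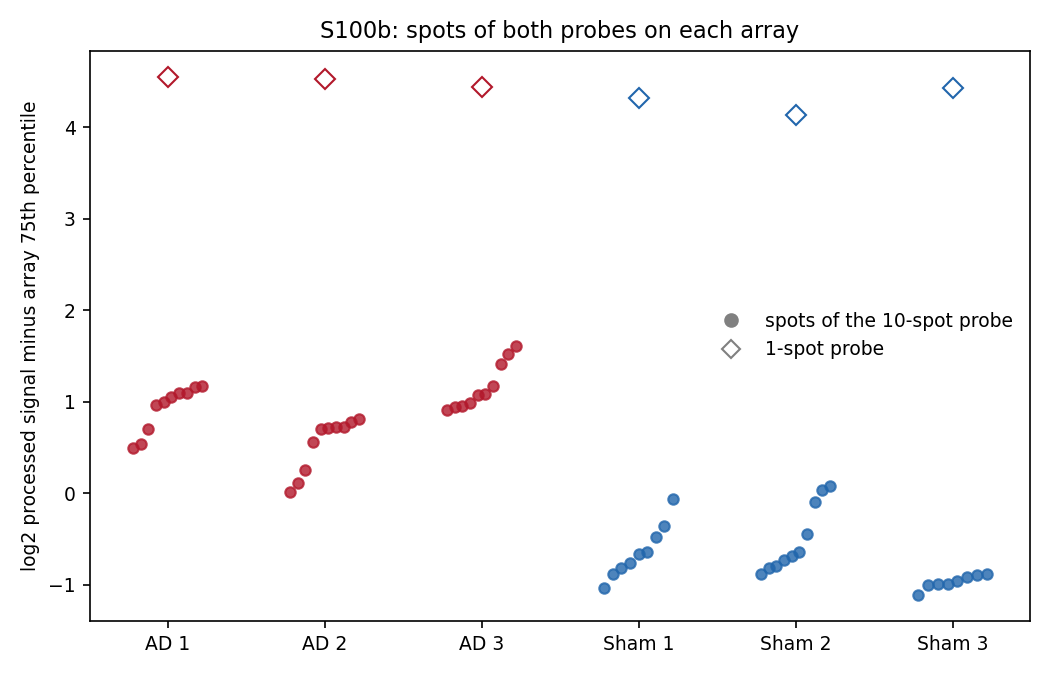
Level on the log2 scale, relative to each array's 75th percentile (vertical axis), for the spots of the 10-spot S100b probe (filled, sorted within each array) and for the 1-spot probe (open), on AD 1 to 3 and Sham 1 to 3. Spots of the 10-spot probe lie between 0.02 and 1.61 in AD and between -1.11 and 0.08 in Sham, whereas the 1-spot probe lies between 4.45 and 4.55 in AD and between 4.13 and 4.43 in Sham.

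Markers of cell types that express S100b were read beside it. Of 14 measured astrocyte genes 0 were higher and 1 was lower, Slc4a4 (a bicarbonate transporter) at -0.84 ± 0.12 (adjusted p = 0.0204), whose second probe had a positive change of 0.15. The astrocyte genes had a median change of -0.17, and their summed level was 8.06 to 8.35 in AD and 8.33 to 8.55 in Sham. Of 14 oligodendrocyte genes 6 were higher and 0 lower, among them Myrf (a myelin transcription factor, 0.65 ± 0.14, adjusted p = 0.0361), Cldn11 (a myelin tight junction protein, 0.64 ± 0.11, 0.0250) and Mobp (a myelin protein, 0.55 ± 0.13, 0.0451). The oligodendrocyte genes had a median change of 0.42, and their summed level was 7.02 to 7.24 in AD and 7.07 to 7.55 in Sham. Mbp, with the brightest probe of that list, had a change of -0.33. Ependymal cells make S100b too, and of 10 ependymal genes 1 was higher, Pltp (a lipid transfer protein, 0.50 ± 0.12, adjusted p = 0.0483), with a summed level of 1.53 to 2.55 in AD and 1.43 to 1.64 in Sham. Of 12 choroid plexus genes 0 passed in either direction, with a median change of 1.98. Their summed level was 6.39 to 7.28 in AD and 4.85 to 6.72 in Sham, and Ttr, with the brightest probe, had a change of 0.99. The choroid plexus genes with the largest changes were Kcnj13, a potassium channel (0.95, -2.34 and 2.05 in AD and -4.59, -3.20 and -2.86 in Sham, change 3.77, adjusted p = 0.0815), and Sostdc1, a secreted inhibitor (change 3.30, 0.0907), and both had AD 3 highest and AD 2 lowest of the AD arrays, as did the 10-spot S100b probe. On the Sham arrays the order differed, with Sham 3 highest for Kcnj13 and Sostdc1 and lowest for the 10-spot S100b probe. The 1-spot S100b probe had AD 3 lowest of the AD arrays. The part of these cell types in the S100b value was not tested.

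S100a1, which is found in neurons and muscle and regulates calcium handling, had levels of 1.38, 1.51 and 1.67 in AD and 0.91, 0.88 and 1.34 in Sham. All AD arrays were above all Sham arrays, by 0.039 over Sham 3. The change of 0.48 ± 0.16 (SE, n = 3 each) did not pass (limma adjusted p = 0.0963), and within the first scan day it was 0.63 and did (0.0263). Skeletal muscle genes, listed because S100a1 is abundant in muscle, had 2 of 14 higher and 0 lower: Myl11 (2.53 ± 0.59, adjusted p = 0.0454) and Myh1 (0.97 ± 0.20, 0.0350), both of the contractile apparatus. AD 3, the highest array for S100a1, stood apart for Myl11, at -0.06 beside -2.05 on AD 1 and -2.41 on AD 2. The summed muscle level was 3.59, 3.54 and 4.19 on AD 1, 2 and 3 and 3.39 to 3.44 in Sham. Pvalb, with the brightest probe of that list, had a change of -0.05. Of 12 neuron genes 0 were higher and 6 lower, with a summed level of 6.51 to 6.66 in AD and 6.89 to 7.13 in Sham. The part of muscle and neuron RNA in the S100a1 value was not tested.

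Of the annexin-binding S100 proteins, S100a10, S100a6 and S100a11 had negative changes under every scaling, and S100a4 a change near 0 whose sign turned under quantile normalization, under the percentile over detected probes and on the authors' table. S100a10, which forms a heterotetramer with annexin A2 and carries membrane proteins to the cell surface, had levels of 2.27, 2.29 and 2.18 in AD and 2.42, 2.53 and 2.73 in Sham, with no overlap and 0.13 between the nearest arrays. Its change of -0.32 ± 0.11 did not pass (limma adjusted p = 0.105). S100a6 (calcyclin) had levels of -1.76, -1.63 and -1.89 in AD and -1.22, -1.13 and -1.63 in Sham, where AD 2 and Sham 3 were 0.00035 apart. Its change was -0.43 ± 0.16 (adjusted p = 0.120), and -0.58 within the first scan day (0.0277). S100a11 had levels of -3.69, -3.88 and -3.64 in AD and -2.76, -3.43 and -3.87 in Sham, with Sham 3 as low as the AD arrays and a change of -0.39 ± 0.28 (0.383). S100a4, a protein of motile cells that binds non-muscle myosin, had levels of 1.09, 1.15 and 1.02 in AD and 1.16, 1.57 and 0.64 in Sham. Sham 2 and Sham 3 lay on either side of the AD arrays, and the change of -0.03 ± 0.23 did not pass (0.937).

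S100a16 and S100a13 had small positive changes. S100a16, a widely expressed member, had levels of 1.74, 1.72 and 1.83 in AD and 1.49, 1.41 and 1.66 in Sham, with AD above Sham by 0.056. Its change was 0.24 ± 0.10 (limma adjusted p = 0.159), and 0.31 within the first scan day (0.0497). S100a13, which takes part in the release of proteins that lack a signal peptide, such as FGF1, had levels of 1.63, 1.47 and 1.46 in AD and 1.34, 1.30 and 1.59 in Sham. Sham 3 lay among the AD arrays, and the change was 0.11 ± 0.11 (0.550). Across the 11 S100 probes, Sham 3 was the lowest Sham array for 4 and the highest for 7, so it lay at an edge of the Sham group each time. The share of all tested probes with Sham 3 at an edge is not given here, so this is not read as a trait of S100 probes.

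Most S100 genes of the rat lie in 1 cluster on chromosome 2, and the annotation (RefSeq, GRCr8) has no protein-coding gene of another family between S100a1 and S100a9 by order of gene starts. S100a11 and S100a10 are neighbours that lie 55 protein-coding genes further on, and S100b lies on chromosome 20. In cluster order the changes of the measured genes were 0.48 for S100a1, 0.11 for S100a13, 0.24 for S100a16, 0.13 for S100a3, -0.03 for S100a4, 0.44 for S100a5, -0.43 for S100a6, -1.65 for S100a8 and -1.71 for S100a9. The neighbours S100a8 and S100a9 both passed, and none of the other 7 measured genes of the cluster did. S100a11 and S100a10 followed at -0.39 and -0.32.

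**Figure D4:**
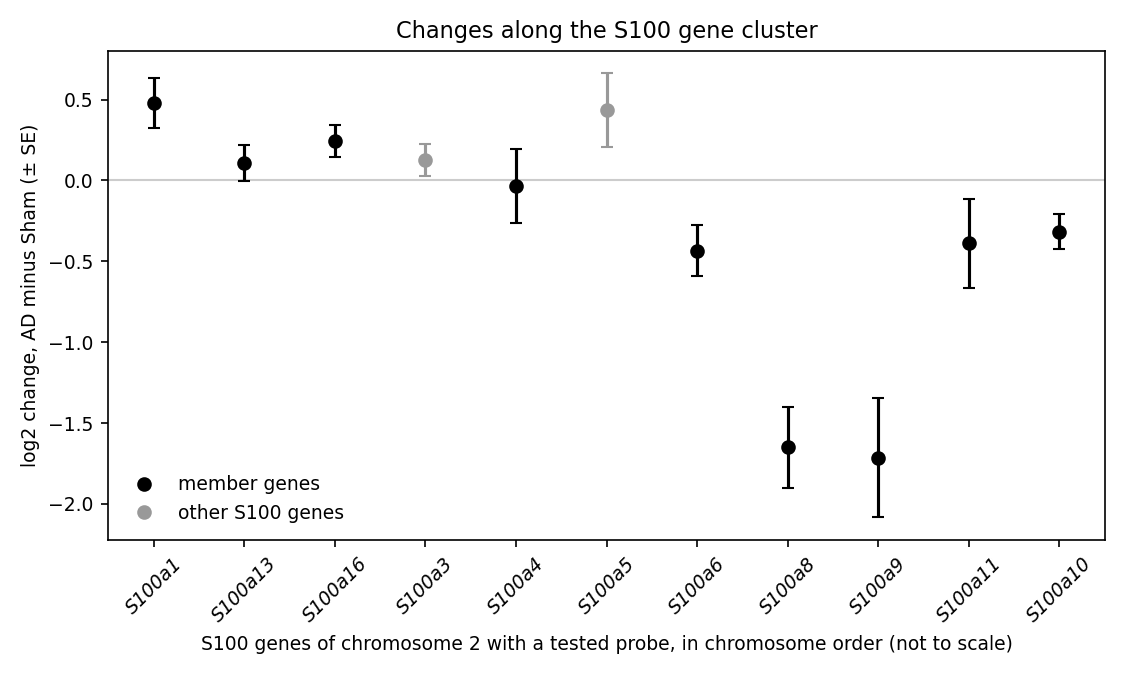
Log2 change, AD minus Sham, with its SE for the S100 genes of chromosome 2 that had a tested probe, in gene order (not to scale), members in black and other S100 genes in grey. S100a8 and S100a9 lie at -1.65 and -1.71, whereas the genes from S100a1 to S100a5 lie between -0.03 and 0.48.

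Of the rest of the family, listed with the S100 binding protein S100pbp, 8 genes had a probe and 5 were measured. S100g (calbindin-D9k, an intestinal calcium carrier) was lower in AD, at -0.71 ± 0.13 (adjusted p = 0.0272), with dim levels of -5.62, -5.57 and -5.93 in AD and -4.92, -4.95 and -5.12 in Sham. The other 4 measured genes (S100a3, S100a5, S100z and S100pbp) did not pass. S100a5 passed within the first scan day, which leaves out Sham 3 (0.70, adjusted p = 0.0185, beside 0.44 over all arrays), and with array weights (0.63, 0.00468).

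Proteins that S100 members bind were mostly not called. Of 16 measured partners 0 were higher and 3 lower: Anxa1 (annexin A1, which binds S100a11) at -0.87 ± 0.18 (adjusted p = 0.0367), Anxa11 (annexin A11, which binds S100a6) at -0.52 ± 0.11 (0.0336) and Tubb3 (neuronal tubulin) at -0.36 ± 0.09 (0.0468). Anxa1 had levels of -0.14, 0.01 and -0.22 in AD and 0.84, 1.04 and 0.37 in Sham, with no overlap. Anxa2, the partner of S100a10, was picked out here after its values were seen and had levels of 1.60, 1.07 and 1.96 in AD and 1.74, 1.77 and 0.73 in Sham, a change of 0.13 (0.832). The median change of the partners was -0.03.

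Of 20 measured genes for S100 receptors and their signalling, 1 was higher and 2 lower. Rela, a subunit of NF-kB, was at 0.55 ± 0.11 (adjusted p = 0.0322), with 0.27 by its other probe. Myd88, the adaptor of Tlr4, was at -0.45 ± 0.11 (0.0464), and Emb (embigin, a receptor of the basigin family) at -0.38 ± 0.09 (0.0488), which was lost within the first scan day (-0.34, 0.0532). The receptors Ager and Tlr4, also picked out with values known, had changes of -0.30 (0.382) and 0.16 (0.384), neither of which passed. The largest changes of the list were those of Il1b (-2.23, limma adjusted p = 0.0529) and Ccl2 (-1.17, 0.153), and neither passed. The median change of the 20 genes was -0.23.

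Among 38 other EF-hand proteins measured, 3 were higher and 4 lower, with a median change of -0.10. 1 of the 3 was Ocm (oncomodulin, a parvalbumin), which was well above background on 3 AD and 0 Sham arrays and so entered the test only through AD. It was at least 2.11-fold higher in AD on the processed signal (mean levels -4.66 in AD and -6.19 in Sham, adjusted p = 0.0269), but its change was 0.13 under normexp, and it is not read as support. Efhd1, a mitochondrial calcium sensor, was at 0.79 ± 0.12 (0.0211). Calm2 (calmodulin) was at -0.60 ± 0.15 (0.0499), with -0.41 and 0.21 by its other probes and -0.48 (0.0549) within the first scan day, and Hpcal1, a neuronal calcium sensor, at -0.58 ± 0.13 (0.0390). Under normexp correction, of the called genes named from the family, partner, receptor and EF-hand lists, Anxa1 (-0.84, adjusted p = 0.0357) and Anxa11 (-0.45, 0.0434) still passed. S100g (-0.47, 0.0995), Tubb3 (-0.31, 0.0968), Rela (0.34, 0.114), Myd88 (-0.37, 0.0763), Emb (-0.39, 0.0520), Ocm (0.13, 0.663), Efhd1 (0.54, 0.0638), Calm2 (-0.59, 0.0573) and Hpcal1 (-0.49, 0.0651) did not. Under quantile normalization Anxa11 (-0.30, 0.141), Tubb3 (-0.16, 0.229), Myd88 (-0.39, 0.0590), Emb (-0.36, 0.0505) and Calm2 (-0.35, 0.0548) did not pass. Of 18 alternatives Anxa1 and Efhd1 were called in 9 each, S100g and Rela in 8 each, Hpcal1 in 7, Anxa11 and Tubb3 in 6 each, Myd88 in 5, and Emb and Calm2 in 3 each, and Ocm in 7 of 17.

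Across 18 alternative settings the 10-spot S100b probe was called in 11, S100a8 in 9 and S100a9 in 7, and each kept its direction in all 18. The 1-spot S100b probe, S100a1, S100a6 and S100a16 were called in 3 each, S100a10 and S100a13 in 1 each, and S100a4 and S100a11 in 0. The settings are not independent checks. Scan day as a block and leaving out Sham 3 gave the same values but are counted separately, here and in the other tallies over alternatives. Quantile normalization and the authors' table were also close (S100a8 at -1.71 under each). The plot of the changes under these settings shows the spread of each probe.

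**Figure D5:**
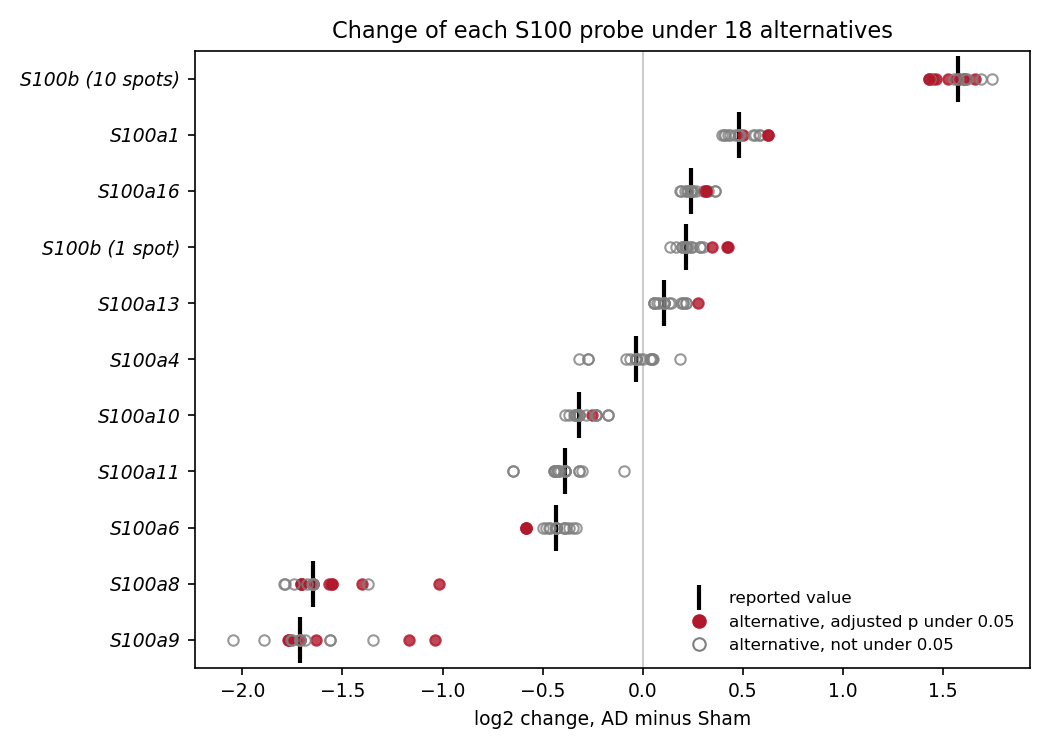
Log2 change, AD minus Sham, of each S100 probe (rows) as reported (bar) and under 18 alternatives (circles, red where the adjusted p was under 0.05). S100a8 stays between -1.79 and -1.02, S100a9 between -2.05 and -1.04 and the 10-spot S100b probe between 1.43 and 1.74, while S100a4 lies on both sides of 0.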

How the data were processed

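The deposited scanner output held, for each spot, a background-subtracted processed intensity (linear scale), made by the authors with Agilent Feature Extraction 11.0.1.1. The deposited value table of the authors is on a log2 scale of unstated scaling (median 6.57 in all columns); its columns for AD 2 and AD 3 match each other's scanner output, whose numbering is kept. Control and outlier spots (400 to 559 per array) were left out, spots of a probe were averaged, and 0 spots were saturated. Probes well above background on at least 3 of 6 arrays were tested with limma 3.58.1 in R 4.3.3 (lmFit and eBayes, two-sided, no covariate), after subtracting the 75th percentile. A bound of at least N-fold sets the brighter group's mean against the dimmest signal that was well above background, or the probe's own signal if higher. Accessions were named through RefSeq (15252 of 26997 matched). All S100 probes are described; of each other list, up to 4 called genes of largest change, or 2 where none was called, with 1 probe per gene. One gene that this rule takes is not reported here. Members and lists were chosen with earlier results of these data known. Alternatives covered normalization, background (normexp on the median signal, with an offset of 50), filters, array weights (whose estimation stopped before full convergence), the methods' t-test, scan and replicate blocks and leaving out each array. Slide and scan coincide, so slide was not run separately. The number of arrays limits the precision. The fits were tested on simulated data.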

Additional observations from a re-analysis of the deposited data

How the results depend on the processing

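With the reported settings 2 S100 probes were called lower, 1 was called higher, and 2872 probes were called in all. S100 probes called lower numbered 0 with no filter on dim probes, 0 with the methods' t-test and 4 with array weights, and leaving out single arrays gave 0 to 2. Probes called higher numbered 2 with quantile normalization, 2 on the authors' table, 5 with array weights and 3 with scan day as a block, and leaving out single arrays gave 0 to 3. Calls over all probes were 1649 with normexp, 358 with no filter, 9870 with array weights, 1854 with the methods' t-test and 4460 with scan day as a block, and 0 to 4460 without single arrays: 0 without AD 1, AD 2, Sham 1 or Sham 2, 2 without AD 3 and 4460 without Sham 3. With scan as a random block (correlation 0.49) limma called 0 probes higher, 0 lower and 0 in all, with 3669 at an unadjusted p under 0.05, of them 3 S100 probes. The replicate block gave 0 calls too, 0 among S100 probes in either direction, with 6480 at an unadjusted p under 0.05, of them 5 S100 probes; the numbers do not pair the samples (correlations of the deviations 0.028, 0.072 and 0.14). Of the called probes, 33.0% were higher in AD as reported and 53.5% with the percentile over probes detected on all arrays. With normexp it was 17.1%, and the median change of all probes moved to -0.15.

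Of 198 values of S100 probes under alternatives, 151 kept direction and call, 27 lost the call, 14 gained it and 6 reversed, all of S100a4: 0.045 with quantile normalization, 0.050 with the percentile over detected probes, 0.040 with normexp, 0.045 on the authors' table, 0.034 with scan as a random block and -0.27 to 0.19 without single arrays. Normexp turned S100a3 to -0.10, S100a5 to -0.030 and Tlr4 to -0.11, and Anxa2 was at -0.11 with array weights, -0.21 with scan day as a block and -0.21 to 0.37 without single arrays. The cause was not tested.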
